A study of Mus musculus with 6 samples.

Results

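The compact regions of mSin3A signal that every library of the study shared were 3685 stretches of the mouse genome, each under 10 kb long. They were selected on the deposited calls themselves. Enriched stretches, called islands, from 4 chromatin immunoprecipitation sequencing (ChIP-seq) libraries were merged where they shared a base or touched. A merged region was kept if all 4 libraries had an island in it and if its span, the end minus the start, was below 10000 bp. These members made up 15.7% of the 23510 merged regions and 65.4% of the 5637 regions called in all 4 libraries. The other 1952 regions of that class spanned 10 kb or more and are called broad below. Being called everywhere and being narrow are thus properties of the rule, and the values below describe the members without testing either property.

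The libraries came from splenic CD8 T cells sorted for high surface TCRbeta. One pair came from wild-type (WT) control mice, as 1 library in condition 1 and 1 in condition 2. The other pair came from mice with the genotype Tcf1-/-Lef1-/-, here called deficient, in which both factors were deleted with CD4-Cre, again with 1 library per condition. The labels do not state what separates the conditions, how many animals were used, their age or sex, or whether the controls carried Cre. With 1 library for each genotype and condition no difference has a replicate check, no test was made, and genotype cannot be told apart from library. The labelled cell type was not checked against marker genes, because the coordinates are on mouse build mm9 and the annotation and promoter sequences at hand are on GRCm38. Members are therefore given by position, with no gene names and no sequence.

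mSin3A is a scaffold protein that does not bind a specific DNA sequence itself. Transcription factors recruit it, and it holds histone deacetylases and accessory subunits that remove acetyl groups from histones, and it is found at many active as well as silenced promoters. Tcf1 and Lef1 are related HMG-box factors that direct T cell development and act both as activators and as repressors. CD4-Cre becomes active in developing thymocytes, so mature CD8 T cells of such mice have already passed through deletion.

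The island lists held between 1792952 and 1917097 reads each, and no other measure of depth was used. They held 13397 and 11151 islands in WT and 15954 and 13556 in deficient cells, condition 1 first. Members took 28.1% and 33.5% of these islands in WT and 24.0% and 27.7% in deficient cells. Members took a more even part of the reads. They held 27.5% of the island reads of WT cells in condition 1 and 30.9% in condition 2, and 26.1% and 27.4% in deficient cells. Called length in members was 14.4 and 15.6 Mb in WT and 13.6 and 14.7 Mb in deficient cells. Broad regions, although fewer, held 35.8% to 43.3% of the reads. Background at any member is unknown, as neither of the 2 inputs was analysed here.

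A typical member held somewhat more than 100 reads in each library. The median was 132 reads in WT condition 1, 144 in WT condition 2, 129 in deficient condition 1 and 137 in deficient condition 2. The lower quartile was 98 to 112 reads and the upper quartile 166 to 183 reads over the 4 libraries. Median called length, summed over the islands of a library within a member, was 3599 and 3999 bp in WT and 3399 and 3599 bp in deficient cells. Condition 2 thus had the longer calls in both genotypes, and WT the longer calls in both conditions. Dividing reads by called length left the medians of the 4 libraries close, but reversed the order of the genotypes, with deficient cells slightly higher in both conditions. Median density was 35.9 and 35.8 reads per kb for WT, then 36.8 and 36.5 for deficient cells.

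Median density was higher in members than in the groups of regions set beside them here, as a description only, since islands are called from reads. Regions called in 2 libraries, and wider regions not called in all 4, were not compared. In broad regions the median density was 28.7 to 29.1 reads per kb over the 4 libraries. In the 2159 regions under 10 kb that were called in 3 libraries it was 28.7 to 29.6 reads per kb. In the 11236 regions under 10 kb called in a single library it was 19.8 to 20.4 reads per kb. The rule required a call in every library, which favours dense stretches, and this comparison was not tested.

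Within the members, reads were denser where the span was shorter. Merged spans ran from 799 to 9999 bp with a median of 5799 bp. Members of 1 to 2 kb had a median of 52.8 reads per kb as the mean of the 4 libraries, those of 3 to 4 kb 44.2, those of 5 to 6 kb 37.2 and those of 9 to 10 kb 32.7. The last value lay near the 29.4 reads per kb of broad regions. Reads per member ran the other way, from a median of 71.2 at 1 to 2 kb to 186 at 9 to 10 kb. Density fell from class to class up to 8 to 9 kb, where it was 32.4 reads per kb, and the last class lay no lower. The class below 1 kb held only 5 members. Members were 79 of the 3189 merged regions of 1 to 2 kb (2.48%) and 304 of the 589 of 9 to 10 kb (51.6%). The rule thus kept a far smaller share of the short regions, and a call in every library favours dense stretches. The fall of density with span is therefore a description of the members kept and was not tested.

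**Figure D1:**
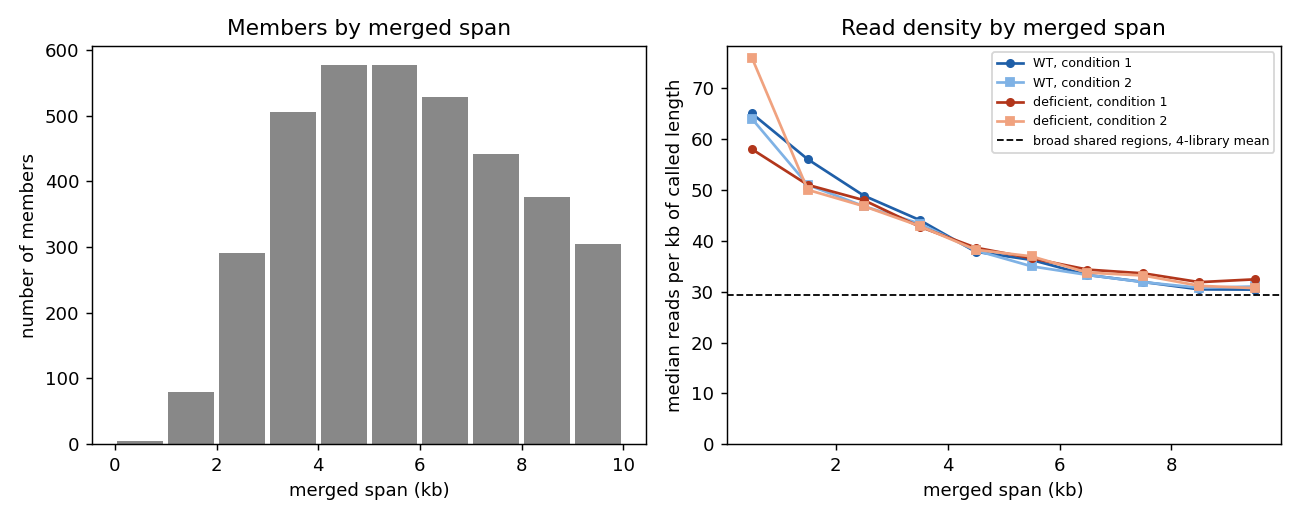
Left, number of members in each 1-kb class of merged span (kb). Right, median reads per kb of called length in the same classes for each of the 4 libraries, with a dashed line at the broad shared regions (29.4 reads per kb, mean of 4 libraries). The lines of the 4 libraries lie close together above 1 kb and fall from 50.1 to 56.1 reads per kb at 1 to 2 kb to 30.4 to 32.4 at 9 to 10 kb.

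Summed over members, longer calls held fewer reads per kb than shorter ones. Over all members the longest call was 1.91 times as long as the shortest in the median. In the 3676 members where they differed, the median gain was 2400 bp. Summed over these members and with no scaling between libraries, the shortest call held 44.1 reads per kb and the longest 30.7. The difference in reads over the difference in length, each summed over these members, was 16.9 reads per kb. It sets 2 libraries against each other over the whole member. Coverage of the added sequence itself was therefore not measured. More reads were found in the longest call in 3467 members (94.3%). These calls were picked by their length, so the values are a description.

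The limit of 10 kb cut through a continuous range. The widest members spanned 9999 bp, a span reached by 62 of them, and 62 broad regions spanned 10199 bp, the next step. Among the first of these along the genome, chr1:71143801-71153799 held 239 and 278 reads in the WT libraries and 222 and 273 in the deficient ones, in condition order. Just outside, chr1:58472401-58482599 held 188 and 309 reads in the WT libraries and 216 and 239 in the deficient ones. The other widest members named by the rule were chr1:94361201-94371199, with 281 and 263 reads in the WT libraries and 211 and 266 in the deficient ones, and chr1:130496001-130505999, with 242 and 212, then 187 and 158. Also just outside lay chr1:88044401-88054599, with 110 and 147, then 176 and 219. Another region of 10199 bp, chr1:74281001-74291199, held 250 and 279 reads in the WT libraries and 207 and 218 in the deficient ones. Regions on both sides of the limit had read numbers of the same order.

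The 4 libraries mostly shared a stretch of each member but differed at its edges. In 3399 members (92.2%, Wilson 95% interval 91.3 to 93.1) each library had exactly 1 island. In 3643 members all 4 libraries had bases in common, and over all members the common stretch had a median of 2200 bp, or 41.2% of the merged span. In broad regions it was 5000 bp, or 32.1% of the span. Starts of the same member lay a median of 1400 bp apart between the outermost libraries, and so did ends. The remaining 42 members (1.14%) had no base called in all 4 libraries, so that they met the rule only through islands that overlapped or touched in a chain. This was the case for 99 broad regions (5.07%).

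Pairs of libraries overlapped to nearly the same extent within members. The share of bases common to a pair of libraries, out of the bases called in either, was 61.0% for the WT pair and 61.1% for the deficient pair. Pairs of different genotype reached 60.5% in condition 1 and 60.9% in condition 2, and the pairs that crossed both gave 60.9% and 61.0%. The pairs of 1 genotype ranked highest and the pairs of 1 condition lowest, but all 6 values fell within 1 percentage point. This order did not hold in members below 5 kb, where the pair of condition 2 ranked highest at 68.8%. Every pair had a median offset of 600 bp at the start and of 600 bp at the end. In broad regions the deficient pair stood higher, at 60.3%, while the other 5 pairs gave 56.8% to 57.5%.

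**Figure D2:**
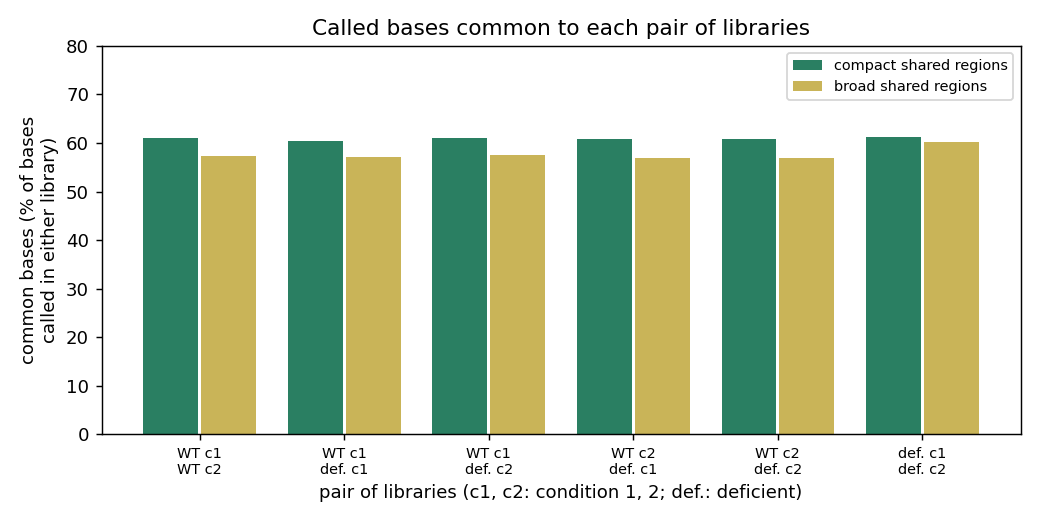
Share of called bases common to each pair of libraries (percent of the bases called in either), for compact shared regions and broad shared regions. The 6 bars of compact regions lie between 60.5% and 61.1%; among broad regions the deficient pair has the highest bar, at 60.3%.

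Exact agreement of both edges was rare. In 6 members the islands started and ended at the same base in all 4 libraries, and in 64 members both edges agreed to within 200 bp, the step in which islands are drawn. Region K, chr3:5860201-5860999, held 523 and 539 reads in the WT libraries and 457 and 453 in the deficient ones. Region L, chr9:30837001-30838999, held 105 and 119 reads in the WT libraries and 128 and 119 in the deficient ones. chr4:99495601-99496599 held 77 and 93 reads in the WT libraries and 81 and 76 in the deficient ones. The read numbers of L and of the chromosome 4 member overlapped between genotypes, and those of K were higher in both WT libraries.

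Smaller numbers were found in the others. chr14:53481401-53484199 held 59 and 64 against 57 and 66 reads, and chr13:22032001-22033199 held 58 and 72 against 51 and 57 reads, WT first. The sixth, chr17:51099001-51100199, which the naming rule did not cover and which was picked after its values were seen, held 67 and 60 against 60 and 42 reads.

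A pair of members stood far above all others in density. Region K had a mean of 617 reads per kb over the 4 libraries, the highest of any member. chr6:3150401-3152999 had 440 reads per kb and the most reads of any member, with 777 and 791 in the WT libraries and 640 and 654 in the deficient ones. Next in density, chr7:7229801-7231399, had 117 reads per kb, from 120 and 122 reads in the WT libraries and 142 and 135 in the deficient ones. chr2:20819801-20822399 followed with 109 reads per kb, from 251 and 217 reads in the WT libraries and 168 and 156 in the deficient ones. In chr10:4539001-4542799, the density was 104 reads per kb, from 283 and 314 reads in the WT libraries and 274 and 294 in the deficient ones. Only these 5 members exceeded 100 reads per kb. Whether the inputs are also dense there was not tested.

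The other members with the most reads were wider and far less dense than K and the chromosome 6 member. chr9:56918601-56928399 held 438 and 423 reads in the WT libraries and 474 and 445 in the deficient ones. chr12:81209801-81219199 held 456 and 466 reads in the WT libraries and 390 and 457 in the deficient ones. chr10:41993401-41999999 held 341 and 348 reads in the WT libraries and 392 and 380 in the deficient ones. Their mean densities were 62.9, 52.4 and 63.0 reads per kb, above the upper quartile of members in every library (44.6 to 47.1). In the chromosome 9 and chromosome 10 members both deficient values lay above both WT values, by at most 1.2-fold after centring.

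Reads of most members differed little between genotypes. Ratios of deficient to WT reads were taken within a condition and centred on the median of all 5637 regions called in all 4 libraries, which was -0.06 in condition 1 and -0.09 in condition 2 on the log2 scale. In 2829 members (76.8%) the centred ratio stayed within 1.5-fold in both conditions, against 54.6% of broad regions. The standard deviation (SD) of the log2 ratio over members was 0.42 in condition 1 and 0.42 in condition 2. Between conditions it was 0.40 in WT and 0.39 in deficient cells. Counting error alone would give 0.18 to 0.19. The spread between genotypes was thus only slightly wider than the spread between the libraries of 1 genotype. In broad regions these SDs were 0.62 and 0.66 between genotypes and 0.67 and 0.53 between conditions.

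Most of the spread moved with called length. Over the 3685 members, which share libraries and in part neighbouring sequence, the log2 read ratio of deficient to WT went with that of called length (Pearson r = 0.83, then 0.85 in condition 2). In the 795 members whose called lengths lay within 1.5-fold in all 4 libraries, the SD of the log2 read ratio was 0.24 and 0.23 between genotypes and 0.20 and 0.20 between conditions. Counting error alone would give 0.18 there. Of these members, 773 (97.2%) stayed within 1.5-fold between genotypes in both conditions. This subset was formed after the data were seen, and since reads are summed over the called length, choosing stable lengths itself leaves out members with large read ratios.

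Few members passed 2-fold, and fewer still in both conditions. In condition 1, 54 members (1.47%) passed 2-fold upward in deficient cells, against 2.8% of all regions called in all 4 libraries. At least 2-fold lower were 56 members (1.52%), against 2.77% of all such regions. In condition 2, 52 members (1.41%) were higher, against 2.73%, and 49 (1.33%) were lower, against 3.23%. In both conditions, 6 members (0.163%) were higher, against 0.319%, and 4 (0.109%) were lower, against 0.408%. In opposite directions, 3 members (0.0814%) were higher in condition 1 and lower in condition 2, against 0.213%, and 4 (0.109%) were lower and then higher, against 0.213%. All these shares lay below those of all such regions, which include the members themselves. Of broad regions alone, 5.33% were higher and 5.12% lower in condition 1, and 0.615% and 0.973% in both conditions. The limit on span caps how far the called lengths of a member can differ, and its part in these shares was not tested. When total island reads set the scale instead of the median, 4 members were higher and 9 lower in both conditions, so the balance of directions depends on the scaling. Shares of all such regions under that scaling are not given here. The ratios of the conditions were weakly related across members (r = 0.10, Spearman rho = 0.09, n = 3685), a description over members of the same libraries.

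**Figure D3:**
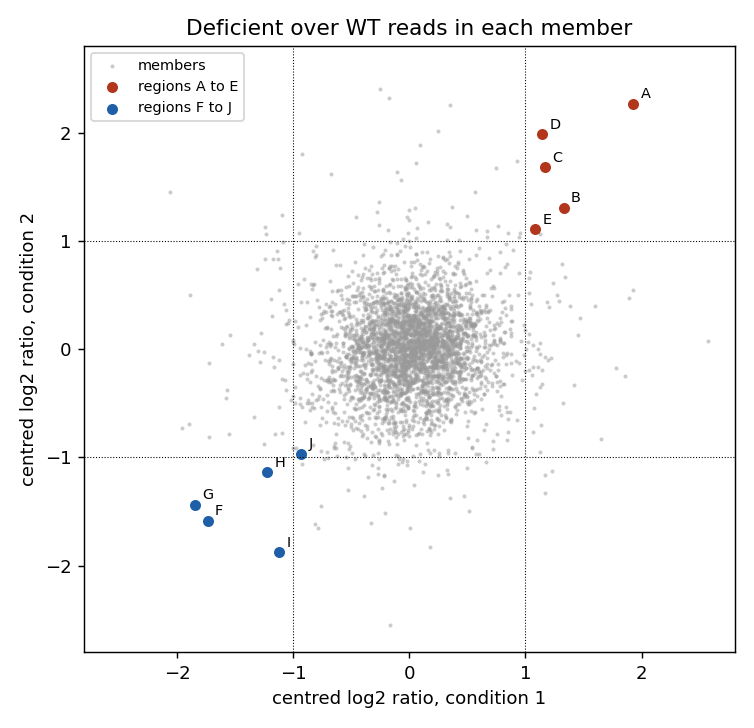
Centred log2 ratio of deficient to WT reads in condition 1 (x axis) and condition 2 (y axis) for each of 3685 members, with dotted lines at 2-fold. Regions A to E and F to J are those ranked highest and lowest in both conditions; the cloud around 0 shows no clear slope (r = 0.10).

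Regions with more reads in deficient cells were led by region A, chr1:107886001-107890799. It held 51 and 45 reads in the WT libraries and 186 and 204 in the deficient ones. The centred ratio was 3.81 (exact 95% interval 2.78 to 5.30) in condition 1 and 4.81 (3.47 to 6.80) in condition 2, and these intervals cover counting error only. Both WT libraries called the same 999 bp at the right end of the region, while the deficient calls added up to 3398 and 4799 bp. In deficient cells of condition 1 the region had 1 island of 46 reads within the stretch called in WT and another, to its left, of 140 reads. Density was nearly level, with 51.1 and 45.0 reads per kb for WT, then 54.7 and 42.5 for deficient cells. In region A, more reads in deficient cells thus went with longer calls at a like density, and in condition 1 with an added island.

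Region B, chr9:13891601-13899399, held 37 and 60 reads in the WT libraries and 89 and 140 in the deficient ones, ratios of 2.51 (1.69 to 3.79) and 2.48 (1.82 to 3.41). Region C, chrX:98448001-98457399, held 74 and 55 reads in the WT libraries and 159 and 166 in the deficient ones, ratios of 2.24 (1.69 to 3.0) and 3.20 (2.35 to 4.43). In B the calls measured 1199 and 2399 bp in WT and 4399 and 6199 bp in deficient cells, and in C 2399 and 1599 bp in WT and 7199 and 7198 bp in deficient cells. Deficient calls of B and C were thus longer, and they were less dense, at 20.2 to 23.1 reads per kb where WT had 25.01 to 34.4.

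Region D, chr3:65461201-65468599, held 50 and 38 reads in the WT libraries and 106 and 142 in the deficient ones. Region E, chr1:133719801-133729399, held 100 and 60 reads in the WT libraries and 203 and 122 in the deficient ones. Neither D nor E had a base common to all 4 libraries, and the density of E was lower in deficient cells in condition 1 and higher in condition 2. The sixth member past 2-fold, chr7:82845801-82851999, fell outside the naming rule and is given because it completes the count. It held 45 and 55 reads in the WT libraries and 94 and 108 in the deficient ones. Of the 6, 5 were longer in deficient cells in both conditions, and none was denser in both.

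Among members with fewer reads in deficient cells, region F, chr2:28949801-28959199, held 219 and 172 reads in the WT libraries and 63 and 54 in the deficient ones. It was 3.33-fold (2.51 to 4.48) and 3.0-fold (2.2 to 4.16) higher in WT. Its called length was 9399 and 4799 bp in WT and 2599 and 2199 bp in deficient cells. Region G, chr3:54389601-54398199, held 120 and 158 reads in the WT libraries and 32 and 55 in the deficient ones, 3.59-fold (2.42 to 5.49) and 2.71-fold (1.98 to 3.75) higher in WT. F and G ranked first by the smaller of their changes in the conditions.

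Region H, chr11:86634201-86643799, held 183 and 247 reads in the WT libraries and 75 and 106 in the deficient ones. Region I, chr9:118392801-118401199, held 193 and 144 against 85 and 37 reads. Region J, chr11:63794001-63800799, held 157 and 166 against 79 and 80 reads and was 1.90-fold and 1.96-fold higher in WT, just short of 2-fold. In the 4 members past 2-fold, F to I, the deficient calls were shorter in both conditions, at 0.160 to 0.458 of the WT length. In 3 of these 4, G, H and I, density was higher in deficient cells in both conditions. In H the densities were close, with 22.9 and 29.4 reads per kb for WT, then 25.01 and 29.5 for deficient cells.

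**Figure D4:**
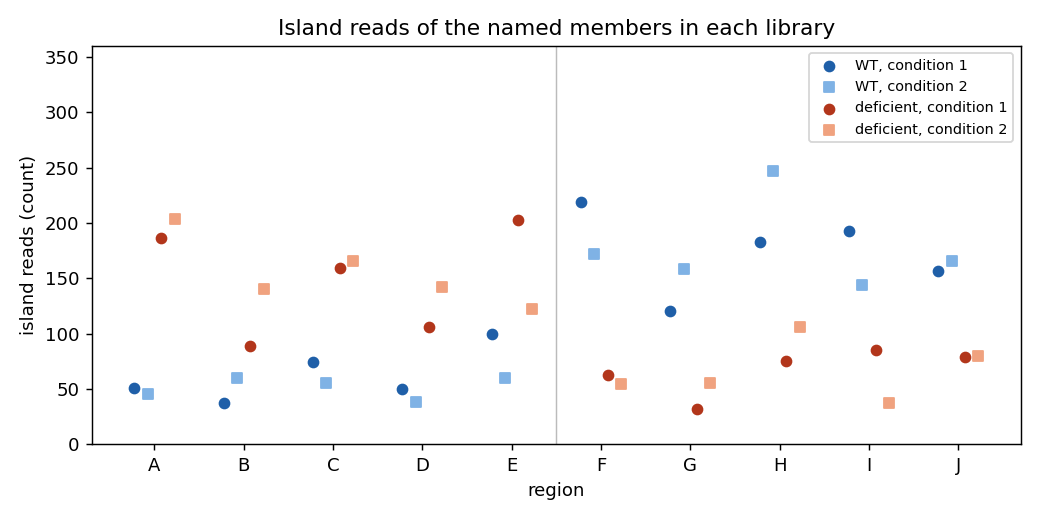
Island reads (count) in each of the 4 libraries for regions A to J. In A to E both deficient libraries lie above both WT libraries; in F to J both lie below.

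**Figure D5:**
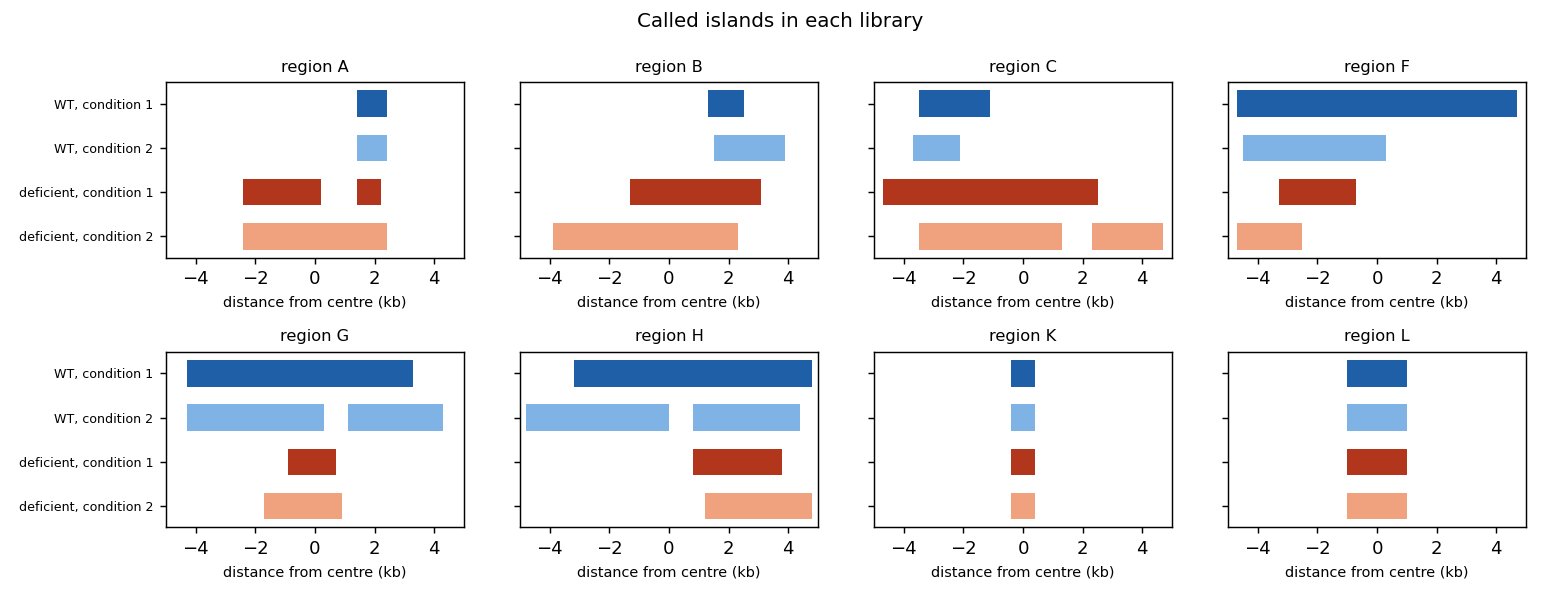
Called islands of each library in regions A, B, C, F, G and H and in K and L, as distance from the centre of the merged region (kb). Calls are longer in deficient cells in A to C and in WT cells in F to H, while in K and L all 4 libraries have the same edges.

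By density, 2 members (0.0543%) passed 2-fold upward without the factors in each condition, beside 0.0532% of all regions called in all 4 libraries, and 1 (0.0271%) passed it downward, beside 0.0355%. chr8:4777601-4780399 had 35.8 and 31.1 reads per kb for WT, then 96.8 and 73.5 for deficient cells, where its calls measured 599 bp against 2399 and 2799 bp in WT. chr3:58377601-58381799 had 34.0 and 26.1 reads per kb for WT, then 76.1 and 56.1 for deficient cells. Reads themselves were lower in deficient cells in both members, at 58 and 44 against 86 and 87 in the former and 76 and 56 against 102 and 99 in the latter. The other, chr19:45435001-45441199, had 29.5 and 27.1 against 57.3 and 61.9 reads per kb and missed 2-fold in condition 1.

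Density was lower in deficient cells in chr9:20410001-20416199, with 82.1 and 50.7 reads per kb for WT, then 36.8 and 25.2 for deficient cells. Its reads were higher in deficient cells, at 125 and 156 against 82 and 81. chr11:16848801-16853199 had 78.4 and 56.3 reads per kb for WT, then 42.0 and 28.9 for deficient cells. chr1:172144801-172147799 had 48.0 and 49.0 reads per kb for WT, then 25.9 and 25.01 for deficient cells. In the 6 members named by density, the denser genotype was the one with the shorter calls. Density is reads over called length and these members were ranked by it, so this is in part built into the choice.

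The conditions differed in a like number of members. At least 2-fold higher in condition 2 in both genotypes were 6 members (0.163%), against 0.248% of all regions called in all 4 libraries, and 3 (0.0814%) were at least 2-fold lower, against 0.142%. chr10:92880601-92890599 held 42 and 45 reads in condition 1 and 120 and 128 reads in condition 2, WT first. chr17:84245201-84254799 held 87 and 95 reads in condition 1 and 243 and 211 in condition 2. chr5:35290001-35298799 held 47 and 55 reads in condition 1 and 108 and 182 in condition 2. In these members the conditions did not overlap. Their calls were longer and less dense in condition 2 in both genotypes. In the chromosome 10 member the calls measured 999 and 999 bp in condition 1 and 5799 and 6799 bp in condition 2. That member had no base called in all 4 libraries. The number of members past 2-fold upward in condition 2 equalled the 6 that were higher in deficient cells.

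Lower in condition 2 was chr4:140457401-140464599, with 160 and 177 reads in condition 1 and 61 and 44 in condition 2. chr5:150039201-150047199 held 150 and 155 reads in condition 1 and 80 and 71 in condition 2. chr6:128799801-128807199 held 155 reads in WT and 57 in deficient cells in the former condition, but 33 and 30 in the latter. In the chromosome 4 and chromosome 5 members the genotypes differed by at most 1.31-fold within a condition, and in the chromosome 6 member by 2.61-fold in condition 1. Calls of these members were shorter in condition 2 in both genotypes. Density was higher in condition 2, except in deficient cells at the chromosome 4 member. The chromosome 6 member had no base called in all 4 libraries.

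Members lay on all 19 autosomes and on chromosome X. Their share of a chromosome's merged regions ran from 13.4% on chromosome 15 (Wilson 95% interval 11.4 to 15.7) to 18.2% on chromosome 19 (15.7 to 21.1), around the overall 15.7%. Out of the regions called in all 4 libraries, members made up 54.1% on chromosome 11, the lowest share, and 87.0% (67 of 77) on chromosome X, the highest. These shares were not tested. The median gap from a member to the nearest other merged region was 11400 bp, close to the 11800 bp of compact regions called in a single library, whereas broad regions had a neighbour at 4000 bp. The nearest neighbour of a member was another member in 18.6% of cases and a region called in 1 library in 46.5%, and over all merged regions these nearest-neighbour shares were 15.7% and 46.6%.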

How the data were processed

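mSin3A ChIP-seq islands of 4 libraries (1 for each of 2 genotypes and 2 conditions) were used, and the 2 inputs were not analysed here. Per the submitters' processing notes, FastQC, Bowtie2 2.2.5 and SICER 1.1 were used on mm9. SICER's window, gap and false discovery settings and its use of the inputs were not given in the sources used here. The deposited lists have no header, and their last column was read as the count of reads per island, from the layout and the whole numbers; these counts are unscaled. Whether a library stands for more than 1 animal is not stated.

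Islands were merged by position. Starts are printed 1-based, while spans and called lengths are deposited end minus start, and common stretches are whole 200 bp steps. Reads, length and density were summed per region and library. Centred log2 ratios have exact Clopper-Pearson 95% intervals, and shares have Wilson 95% intervals; all cover counting error only. SDs expected from counting are the square root of the mean of the summed reciprocal counts, divided by the natural logarithm of 2 to give the log2 scale. The members, regions named and comparisons were chosen with earlier results of these data known. Regions were named by rank: the 5 densest, the 5 with most reads, the 5 highest and 5 lowest ratios taken in the condition of smaller change, 3 each by density and by condition, the 5 with equal edges and most reads, the widest, and those next to the limit. The 3 members of least span were in the rule too: region K, chrX:157203601-157204399 (32 and 40 reads in WT, 34 and 27 in deficient cells) and chr1:79772201-79773199 (52 and 64, 58 and 68 reads). The functions were tested on simulated lists. Python 3.11.15, numpy 2.4.6, pandas 2.3.3 and scipy 1.17.1 were used.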

Additional observations from a re-analysis of the deposited data

Results flagged for a closer look

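In 7 members the genotypes differed by at least 2-fold in opposite directions in the conditions, and this difference was not tested. Higher in deficient cells in condition 1 and lower in condition 2 were 3 members (0.0814%), where 0.213% of all regions called in all 4 libraries were. They were chr1:166063801-166071399 (80 and 200 reads in the WT libraries, 172 and 84 in the deficient ones, condition 1 first), chr7:129239001-129247999 (82 and 165, 177 and 62) and chr16:32123801-32132999 (85 and 195, 191 and 84). Lower in condition 1 and higher in condition 2 were 4 members (0.109%), also against 0.213%. They were chr5:104446801-104453199 (76 and 67, 31 and 132), chr7:29817201-29826799 (141 and 56, 57 and 115), chr11:52192801-52200599 (96 and 44, 43 and 98) and chr13:23616001-23621199 (100 and 38, 23 and 98). Members past 2-fold in opposite directions, 7, thus compare with 10 in the same direction. Of the 7, 5 had no base called in all 4 libraries.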

How the results depend on the processing

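The number of members moved from 3685 to 1458 with a span below 5 kb and to 1861 when only islands in the upper 50% of their list by reads were used. Joining within 2 kb gave 3234, of which 3060 were identical regions. Keeping touching islands apart gave 3698, a span below 15 kb 4627, lists held to the shortest 3387 and islands of at least 1 kb 3532. Leaving out 1 library gave 4045 to 5094. Counts past 2-fold in both conditions, 6 higher and 4 lower, became 30 and 38 at 1.5-fold and 2 and 1 per kb. The lower count became 9 with total-read scaling and 2 with joining within 2 kb; the higher count was 4 with each. SDs of 0.42 and 0.42 between genotypes and 0.40 and 0.39 between conditions became 0.44, 0.43, 0.43 and 0.43 per kb. They became 0.32, 0.33, 0.29 and 0.32 below 5 kb, 0.40, 0.40, 0.39 and 0.36 at 100 or more reads and 0.40, 0.41, 0.39 and 0.38 with 1 island in every library. Below 5 kb, median reads were 107, 116, 106 and 112 and densities 43.1, 42.2, 42.3 and 41.9 reads per kb, in the order WT condition 1 and 2, deficient condition 1 and 2. Bases common to a pair were then 67.9% (WT), 67.5% (deficient), 67.0% and 68.8% (genotypes within conditions 1 and 2) and 68.2% and 67.7% (crossed), and 99.3% of members had 1 island per library. Equal edges rose from 6 members to 64 within 200 bp. The causes of these shifts were not tested. The higher members outnumbered the lower at 2-fold, but the lower outnumbered the higher with total-read scaling, with no scaling (5 higher, 6 lower) and at 1.5-fold. Of all regions called in all 4 libraries, 0.319% were higher and 0.408% lower in both conditions at 2-fold with the main scaling. Their shares at 1.5-fold, with other scalings and with joining are not given here, so these balances are not a result about the members. Median density was higher in deficient cells over all members, but higher in WT within each condition below 5 kb. The missing inputs and total depth limit what read numbers can show, and no annotation of mm9 was used, so gene starts were not run.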

Other observations

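The number of members differed between windows of 1 Mb. Of 1359 windows of 1 Mb with a member, 464 held exactly 1 and the median was 2. The most, 14 members among 48 merged regions, lay in the window from 134000001 to 135000000 on chromosome 7. Windows with 13 members began at 95000001 on chromosome 3 (43 merged regions) and at 86000001 on chromosome 11 (27 merged regions), and one with 12 began at 23000001 on chromosome 13 (33 merged regions). Region H lies in the chromosome 11 window, and the member with the largest opposite ratios lies in the chromosome 13 window. These windows were picked after their values were seen. Windows without a member were left out, and the spread of all merged regions was not set beside these numbers. Whether members are less evenly spread than merged regions in general was not tested.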
